A study of Mus musculus with 7 samples.

Results

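Respiratory complex I was followed here through 36 nuclear genes, most of which encode its subunits, in brain microglia of 5xFAD mice with and without B2m. The genes were taken as the array rows annotated with any of 36 fixed symbols, and each symbol matched 1 probe set among 19505 genes measured. The study measured transcripts on 1 expression array per sample, with 3 arrays from 5xFAD;B2m+/+ mice and 4 from 5xFAD;B2m-/- mice, both on the C57BL/6 strain. Every animal therefore carried 5xFAD, a set of neuron-directed transgenes for mutant human amyloid precursor protein and presenilin that leads to amyloid plaques, and no group without it was measured. The 2 groups differ in B2m, which encodes the light chain of MHC class I, and mice without it have few CD8+ T cells. The cells were gated as viable, CD45 positive and CD11b positive, a gate that other myeloid cells can also enter. Neither age, sex and litter nor whether arrays came from separate animals is given in the sources used here, so the p-values describe the spread between these samples. Values are log2 expression after RMA, the authors' background correction, normalization and probe summary, and each difference is knockout minus wildtype on that log2 scale.

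Complex I, or NADH:ubiquinone oxidoreductase, is the entry point of the mitochondrial respiratory chain. Its peripheral arm takes electrons from NADH and passes them over a flavin and a chain of iron-sulphur clusters to ubiquinone, and its membrane arm pumps protons. A set of conserved core subunits carries out catalysis, and the many accessory subunits stabilise or help to assemble the complex. In microglia and other macrophages the balance of oxidative phosphorylation and glycolysis is known to shift with activation. The core membrane subunits, encoded by mitochondrial DNA, were not analysed here. The genes hold 6 core subunits of the peripheral arm, 9 accessory subunits of that arm, 9 and 10 accessory subunits of the near and far membrane arm, and the acyl carrier protein Ndufab1. Ndufa4, the last of the 36, keeps its complex I name but its protein is now assigned to complex IV.

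The labels held in the B2m values, at 13.39 to 13.42 in arrays of wildtype and 10.24 to 10.56 in arrays of knockout microglia. Defining microglial markers were bright, with P2ry12 between 12.89 and 13.11 and all 15 measured markers above the 95th percentile of the array's negative control rows in every array. That percentile, at 9.35 to 9.55, is used below as a rough guide to background. The B2m values of the knockout arrays also lay above it. None of the 8 T and natural killer cell markers measured passed it in any array. Of the other cell types, endothelial markers stood apart in wildtype replicates 1 and 2 and neutrophil markers in knockout replicate 4, with values given below.

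Complex I transcripts lay higher in the B2m knockout arrays for nearly every subunit, by a modest amount, and no single subunit passed correction over all genes. Of the 36 genes, 35 passed the filter on dim genes (a value over the median of all named genes on that array, 7.92 to 7.99, in at least 3 arrays), 34 of them in all 7 arrays and Ndufab1 in 6. All 35 had a difference above 0, where 48.6% of the 10004 tested genes did. Their differences ran from 0.04 to 0.69 with a median of 0.39, against -0.0055 over all tested genes, and the median over all 36 genes was 0.37. In the limma test 0 of the 35 reached an adjusted p under 0.05, as 0.050% of tested genes did. At an unadjusted p under 0.05, 27 were higher in knockout arrays, where the background was 8.39%, and 0 were lower, where it was 3.54%. In 22 genes all knockout arrays lay above all wildtype arrays, which held for 7.10% of tested genes, and in 0 all lay below, which held for 3.80%. A closer background for short, bright genes, given below with the gene spans, was higher than 8.39%. These shares describe genes that were picked with earlier results of these arrays known, and they are not a test of the group. In bulk RNA, fewer cells of a type and less RNA per cell cannot be told apart.

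**Figure D1:**
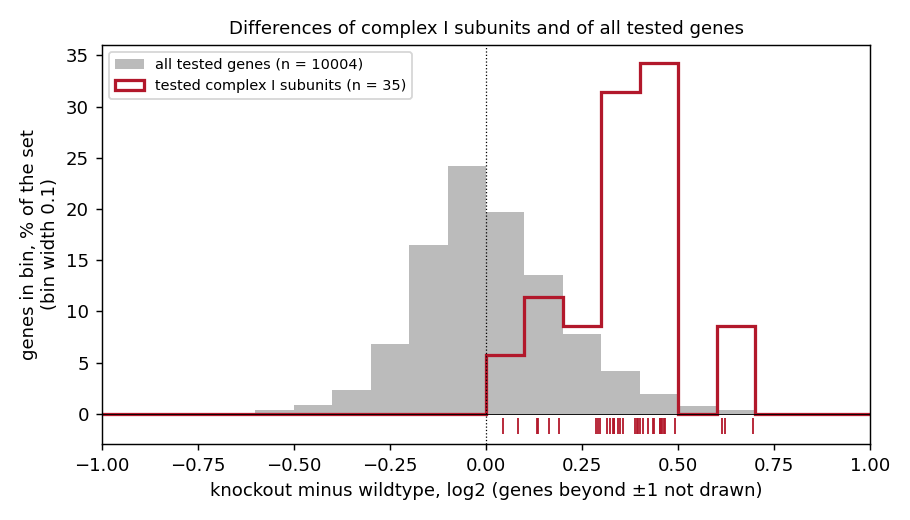
Share of genes (vertical axis, percent of each set) by knockout minus wildtype difference on the log2 scale (horizontal axis), for all 10004 tested genes in grey and the 35 tested complex I genes in red, with a tick for each complex I gene. Genes beyond 1 in either direction are not drawn, and the red ticks all lie above 0, between 0.04 and 0.69.

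The count at an unadjusted p under 0.05 depended on wildtype replicate 1. That array held the lowest of the 7 values in 31 of the 36 genes, as it did in 17.5% of tested genes. It lay below every knockout array in all 36, with no share over tested genes computed. Without it, the median difference was 0.26 and 11 genes were higher at an unadjusted p under 0.05 (background 4.74%). Without wildtype replicates 1 and 2, which left a lone wildtype array assumed to vary like the knockout arrays, the median was 0.16 and 2 genes were counted (background 2.17%). Wildtype replicate 3 was the highest of the wildtype arrays in 31 genes and lay above the lowest knockout array in 12. Shares over tested genes were not computed for these counts. With each gene centred on its mean over the 7 arrays, the median over the 36 genes was -0.42, -0.16 and -0.0097 in wildtype replicates 1 to 3. It was 0.19, 0.24, 0.15 and 0.034 in knockout replicates 1 to 4. Wildtype replicate 3 and knockout replicate 4 were the closest arrays of the 2 genotypes, and these medians did not overlap. Wildtype arrays also spread more, since the SD was larger in wildtype than in knockout arrays for 31 of the 36 genes, or 86.1%, against 43.9% of tested genes. The median SD over the complex I genes was 0.23 in wildtype and 0.11 in knockout arrays.

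**Figure D2:**
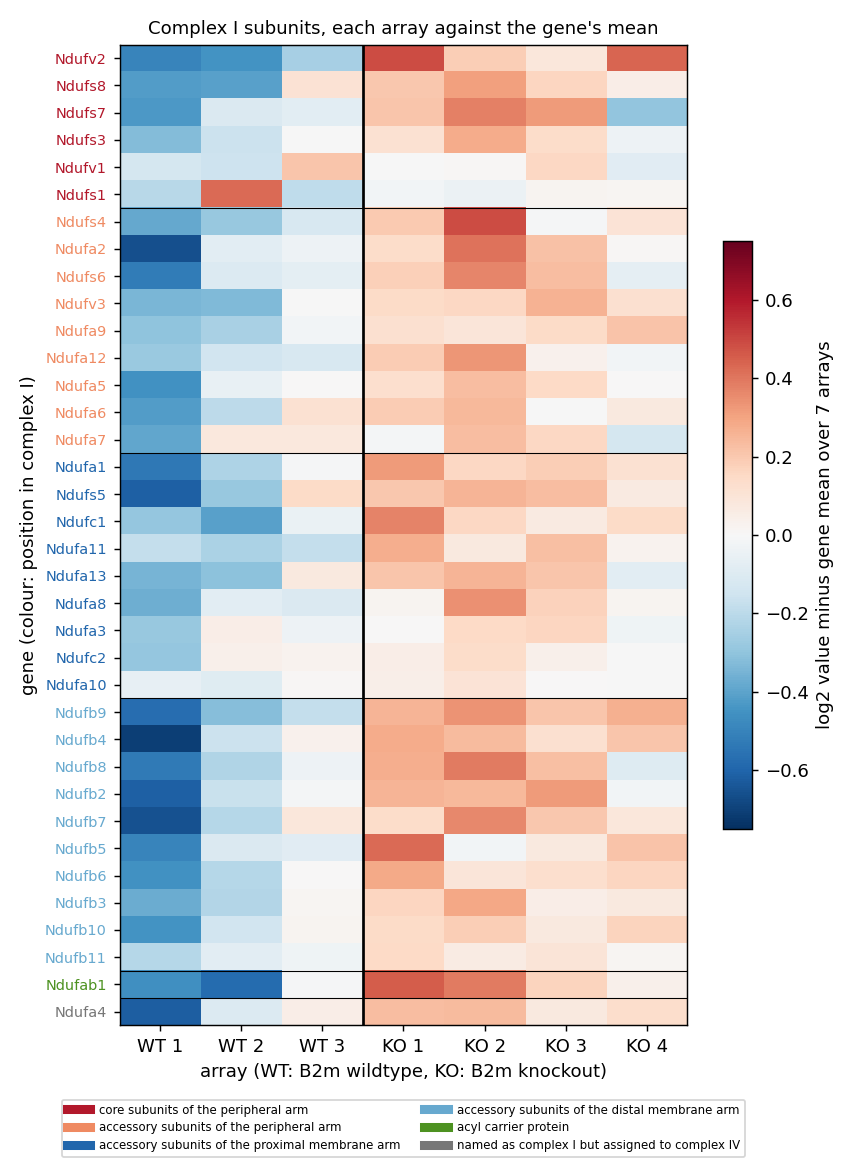
Log2 value of each of the 36 genes (rows, coloured by place in the complex) in each array (columns), minus the gene's mean over the 7 arrays. Blue is below and red above that mean. Wildtype replicate 1 is the lowest array in 31 rows, and knockout replicate 2 the highest in 21.

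Among the core subunits of the peripheral arm, which carry the flavin and the iron-sulphur clusters, the differences were uneven. Ndufv2, an iron-sulphur subunit of the NADH-binding end, measured 9.30, 9.34 and 9.54 in wildtype arrays and 10.28, 9.98, 9.88 and 10.23 in knockout arrays. Every knockout array exceeded every wildtype array, with a gap of 0.33 between the nearest values. The difference of 0.69 (SE 0.13, limma adjusted p = 0.183) was the largest of the 35. The Ndufv2 values of wildtype replicates 1 and 2 lay below the background guide. Ndufv1, its partner that binds NADH and the flavin, measured 10.17, 10.15 and 10.51 in wildtype arrays and 10.29, 10.31, 10.46 and 10.22 in knockout arrays. Here the groups overlapped, wildtype replicate 3 was the highest array, and the difference was 0.04 (SE 0.12, 95% confidence interval -0.22 to 0.31). That sign was not stable, and it turned under 6 of 18 alternative settings. The difference between these neighbouring subunits was not itself tested.

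Ndufs8, which holds iron-sulphur clusters on the path to ubiquinone, measured 10.11, 10.13 and 10.64 in wildtype arrays and 10.74, 10.84, 10.69 and 10.58 in knockout arrays. Wildtype replicate 3 reached into the knockout range, and the difference was 0.42 (SE 0.14, limma adjusted p = 0.348). Ndufs3, a core subunit of the part that binds ubiquinone, differed by 0.29 (SE 0.12, limma adjusted p = 0.386). Ndufs7, which holds the last cluster before ubiquinone, had the widest spread within groups of all 36 genes. Its wildtype values were 8.29, 8.61 and 8.64, and its knockout values were 8.93, 9.10, 9.04 and 8.43. Knockout replicate 4 fell among the wildtype arrays, and no value of Ndufs7 passed the background guide. Ndufs1, the large subunit with several clusters, was the gene that the filter left out. It measured 6.78, 7.41 and 6.79 in wildtype arrays and 6.96, 6.94, 7.005 and 6.999 in knockout arrays, at percentiles 61.4 to 71.8 of the rows tagged as negative controls. Only wildtype replicate 2 stood apart, and a level so close to background supports no statement on its direction. Across the 5 tested core genes the median difference was 0.36, and 3 were higher at an unadjusted p under 0.05 (background 8.39%).

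The accessory subunits of the peripheral arm were more even. All 9 had differences above 0, between 0.14 and 0.46, and 7 were higher at an unadjusted p under 0.05 (background 8.39%). Ndufs4, which helps to attach the NADH-binding part and whose loss in mice causes a Leigh-like brain disease, measured 10.26, 10.36 and 10.52 in wildtype arrays. Its knockout values were 10.84, 11.13, 10.63 and 10.74, all above the wildtype arrays, and knockout replicate 2 was the highest. The difference was 0.46 (SE 0.13, limma adjusted p = 0.315), or 1.37-fold with a 95% confidence interval of 1.12 to 1.68. Ndufa9, which lies where the peripheral arm meets the membrane, measured 10.74, 10.80 and 11.02 in wildtype arrays and 11.16, 11.13, 11.19 and 11.26 in knockout arrays. The knockout arrays lay close together here, with an SD of 0.052 against 0.15 in wildtype, and the difference was 0.33 (SE 0.10, limma adjusted p = 0.327).

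Ndufv3, a small subunit beside the flavin-binding part, measured 9.004, 9.02 and 9.35 in wildtype arrays and 9.49, 9.50, 9.61 and 9.47 in knockout arrays. The groups did not overlap, but these values sat around the background guide, so the difference of 0.40 (SE 0.11, limma adjusted p = 0.315) is given with no fold. Ndufa2, a small subunit with a thioredoxin-like fold, showed the widest range of the 36 genes, 1.07 between arrays. It measured 11.31, 11.89 and 11.94 in wildtype arrays and 12.11, 12.38, 12.19 and 11.98 in knockout arrays, so wildtype replicate 1 alone lay far below the rest. Ndufs6, Ndufa12, Ndufa5 and Ndufa6 differed by 0.41, 0.31, 0.30 and 0.29. Ndufa7 differed by 0.14 (SE 0.14), with wildtype replicates 2 and 3 inside the knockout range, and was below 0 in both settings that left out wildtype replicate 1 with all knockout arrays kept.

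**Figure D3:**
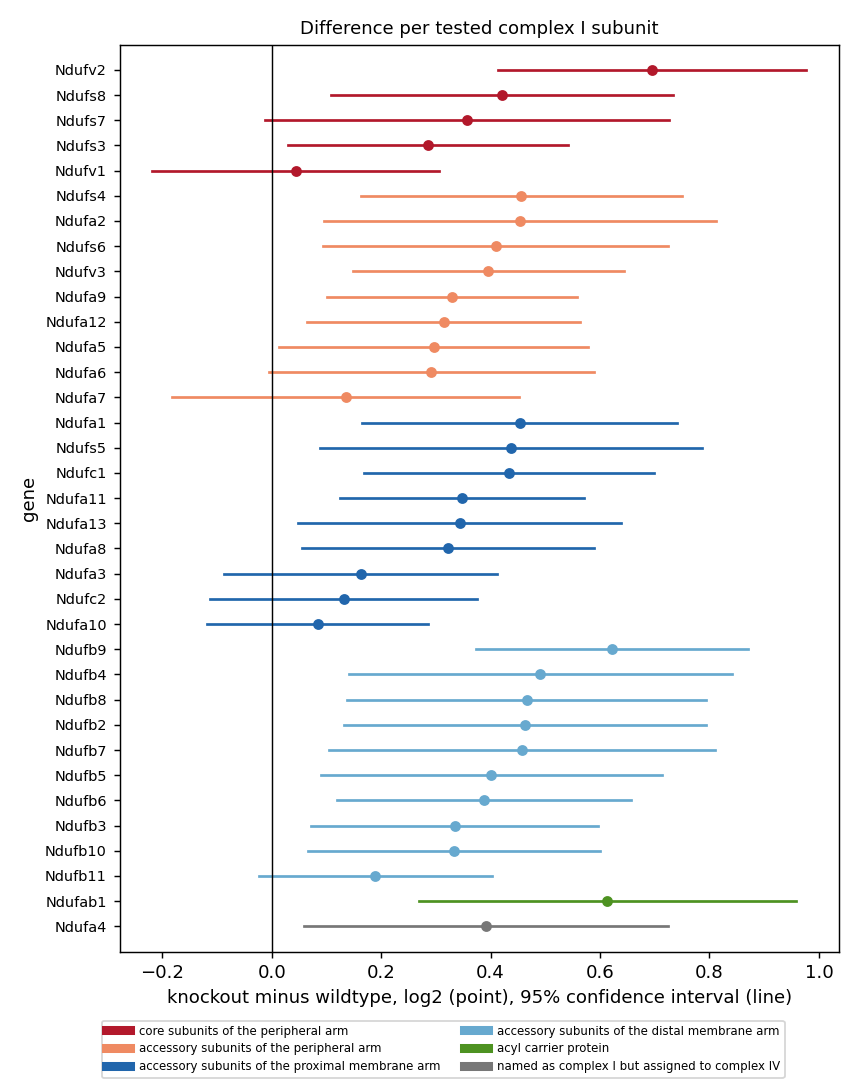
Knockout minus wildtype difference on the log2 scale (point) with its 95% confidence interval from limma (line) for the 35 tested genes, grouped and coloured by place in the complex. The intervals are not adjusted for the number of genes, and 27 of them lie above 0.

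In the membrane arm, the 9 accessory subunits next to the peripheral arm differed by 0.08 to 0.45, with a median of 0.34. Of these, 6 were higher at an unadjusted p under 0.05 (background 8.39%). Ndufa1, an X-linked single-span membrane subunit needed for assembly, measured 11.15, 11.46 and 11.68 in wildtype arrays and 12.01, 11.84, 11.87 and 11.80 in knockout arrays. All knockout arrays lay above all wildtype arrays, by 0.13 at the nearest pair. The difference was 0.45 (SE 0.13, limma adjusted p = 0.315), or 1.37-fold with a 95% confidence interval of 1.12 to 1.67. Ndufc1, a small membrane subunit, measured 10.16, 10.04 and 10.40 in wildtype arrays and 10.82, 10.61, 10.52 and 10.59 in knockout arrays. It differed by 0.43 (SE 0.12, limma adjusted p = 0.315), or 1.35-fold with an interval of 1.12 to 1.62.

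Ndufa11 was the steadiest of the leading genes in wildtype arrays, at 9.14, 9.08 and 9.13, against 9.58, 9.39, 9.54 and 9.34 in knockout arrays. Its wildtype SD was 0.034, so its difference of 0.35 (SE 0.10, limma adjusted p = 0.315) did not rest on wildtype replicate 1, and it stayed between 0.31 and 0.40 over the 18 alternatives. All 3 wildtype values of this membrane subunit lay below the background guide, as did those of knockout replicates 2 and 4. Ndufa10, a kinase-like accessory subunit, was nearly level. It measured 11.30, 11.27 and 11.37 in wildtype arrays and 11.40, 11.46, 11.36 and 11.36 in knockout arrays, the narrowest range of the 36 genes at 0.19. The groups overlapped and the difference was 0.08 (SE 0.091, 95% confidence interval -0.12 to 0.29). Ndufc2 and Ndufa3, small membrane subunits, differed by 0.13 (SE 0.11) and 0.16 (SE 0.11). In Ndufc2 both wildtype replicates 2 and 3 fell within the knockout range, and in Ndufa3 replicate 2 did. Ndufs5, Ndufa13 (also known as GRIM-19) and Ndufa8 differed by 0.44, 0.34 and 0.32.

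The distal membrane arm, which holds the proton-pumping subunits farthest from the peripheral arm, had the highest median of the larger groups. All 10 of its accessory genes had differences above 0, between 0.19 and 0.62, with a median of 0.43. Of these, 9 were higher at an unadjusted p under 0.05 (background 8.39%). Ndufb9 measured 8.95, 9.20 and 9.34 in wildtype arrays and 9.77, 9.85, 9.73 and 9.78 in knockout arrays. The groups were separated by 0.39, the widest gap of the 36 genes, and the difference was 0.62 (SE 0.11, limma adjusted p = 0.183). Its wildtype values lay below the background guide and its knockout values above it, so no fold is given. Ndufb6 measured 10.68, 10.92 and 11.14 in wildtype arrays and 11.42, 11.22, 11.26 and 11.30 in knockout arrays. It did not overlap, and the difference was 0.39 (SE 0.12, limma adjusted p = 0.331), or 1.31-fold with a 95% confidence interval of 1.09 to 1.58.

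In Ndufb7 the gap between the groups was only 0.002, and in Ndufa5 and Ndufs6 of the peripheral arm it was 0.0007 and 0.0055. The Ndufb7 values were 10.42, 10.86 and 11.16 in wildtype arrays and 11.21, 11.43, 11.28 and 11.16 in knockout arrays. Wildtype replicate 1 was again far below the others. The difference of 0.46 (SE 0.16) was 0.11 with wildtype replicates 1 and 2 left out. Ndufb4, Ndufb8 and Ndufb2 differed by 0.49, 0.47 and 0.46, and Ndufb5, Ndufb3, Ndufb10 and Ndufb11 by 0.40, 0.33, 0.33 and 0.19. A near-identical copy of Ndufb4, Ndufb4b, has its own row on the array, so the signals of the pair may not be fully separate.

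Ndufab1 is the mitochondrial acyl carrier protein, which serves fatty acid and lipoate synthesis besides complex I. It measured 8.05, 7.93 and 8.50 in wildtype arrays and 8.97, 8.90, 8.68 and 8.55 in knockout arrays. The difference was 0.61 (SE 0.16, limma adjusted p = 0.315), with a gap of 0.049 between wildtype replicate 3 and knockout replicate 4. All 7 values lay below the background guide. Ndufa4, now counted with complex IV, differed by 0.39 (SE 0.15, limma adjusted p = 0.375). Without it the median over the other 34 tested genes was 0.37.

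**Figure D4:**
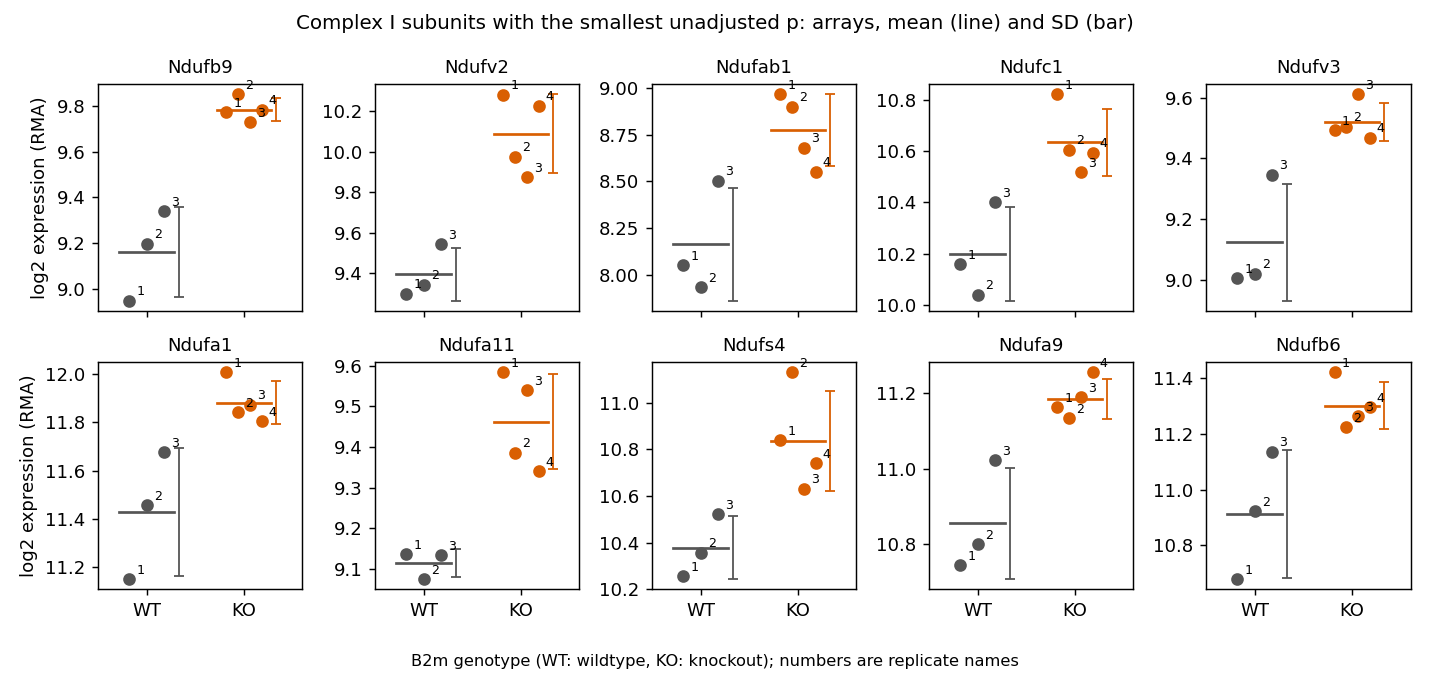
Log2 expression (vertical axes, each with its own range and not starting at 0) of the 10 complex I genes with the smallest unadjusted p in wildtype and knockout arrays. Points are arrays named by replicate number, lines are group means and bars are SD (n = 3 and n = 4). The groups do not overlap in any of the 10 panels, but these genes were picked by p in the same arrays, which favours separation. Wildtype replicate 3 is the highest or, in Ndufa11, nearly the highest wildtype array.

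Features outside the expression values were compared across the 36 genes. They lie on 15 chromosomes. On chromosome 2, which holds B2m, Ndufs3 and Ndufa8 lie 126 and 232 tested genes away from it in gene order. The genes are short, with a median span of 7744 bp (2256 to 100300 bp) against 21309 bp over tested genes, and 21 of the 36 are among the 2501 shortest tested genes. Over those 2501 genes the median difference was 0.047, and over an equal share of the longest genes it was -0.064. Bright genes among the short ones lay higher still. Of the 36, 15 had both a span within that limit (8808 bp) and a mean log2 value above 10.18, the level exceeded by 1 in 4 tested genes. Over the other 626 tested genes of this kind the median difference was 0.14, and 23.5% were higher at an unadjusted p under 0.05, well above the 8.39% of all tested genes. The 15 complex I genes had a median of 0.42, and 11 were higher at that p. This set was defined with the differences known, and the part of span and level in the result was not tested. The array medians of the 2501 shortest genes, at -0.074, -0.025 and 0.028 in wildtype replicates 1 to 3 and 0.042, 0.059, 0.041 and -0.028 in knockout replicates 1 to 4, had the same array lowest and the same array highest as the complex I genes. With each array's linear trend on log gene span removed, the complex I median was 0.35 and 27 genes were higher at an unadjusted p under 0.05, where the share of tested genes was 8.13%. Within the 35 tested genes, the difference showed little relation to span (Spearman's rho -0.059, across genes that share the same 7 arrays).

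Promoter sequence was examined because most of these genes shared their array pattern. RefSeq windows of GRCm38.p6, from 250 bases before to 50 bases after the gene start, were matched for 33 of the 36 genes, and Ndufa2, Ndufb9 and Ndufs1 had none. Letters of 5 motifs known from promoters of respiratory genes or from housekeeping promoters were searched on both strands. The upstream parts of 4 windows are printed for comparison, those of Ndufv2 and Ndufab1, which had the smallest unadjusted p among genes with a single window, of Ndufb6, where both NRF1 and ETS letters were found, and of the nearly level Ndufv1. Capitals mark any motif match, and each sequence ends at the base before the gene start.
Ndufv2, chr17:66101560-66101809, minus strand: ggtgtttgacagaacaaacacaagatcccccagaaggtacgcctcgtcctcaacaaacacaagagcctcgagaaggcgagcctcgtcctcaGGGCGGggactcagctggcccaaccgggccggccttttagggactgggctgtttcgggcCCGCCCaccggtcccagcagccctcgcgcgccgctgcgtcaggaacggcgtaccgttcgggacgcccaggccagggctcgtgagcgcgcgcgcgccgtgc
Ndufab1, chr7:122101849-122102098, minus strand: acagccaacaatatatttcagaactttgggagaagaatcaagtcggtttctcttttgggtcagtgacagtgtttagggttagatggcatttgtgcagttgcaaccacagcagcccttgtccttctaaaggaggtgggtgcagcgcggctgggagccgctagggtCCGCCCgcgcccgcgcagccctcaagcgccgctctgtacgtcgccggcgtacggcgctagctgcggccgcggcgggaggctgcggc
Ndufb6, chr4:40279422-40279671, minus strand: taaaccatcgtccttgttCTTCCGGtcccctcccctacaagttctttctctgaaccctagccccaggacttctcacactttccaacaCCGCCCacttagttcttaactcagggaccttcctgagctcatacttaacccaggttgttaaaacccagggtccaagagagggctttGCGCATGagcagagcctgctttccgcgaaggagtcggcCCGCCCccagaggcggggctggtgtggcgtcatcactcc
Ndufv1, chr19:4012756-4013005, minus strand: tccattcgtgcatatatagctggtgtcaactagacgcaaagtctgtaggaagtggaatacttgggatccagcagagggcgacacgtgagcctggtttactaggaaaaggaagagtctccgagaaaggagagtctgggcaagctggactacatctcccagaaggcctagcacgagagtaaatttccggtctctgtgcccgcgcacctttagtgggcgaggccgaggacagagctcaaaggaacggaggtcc
The Ndufb6 window holds the NRF1 core GCGCATG starting 77 bases before the gene start and the ETS letters CCGGAAG, on the other strand, 232 bases before it. The Sp1 letters GGGCGG occur on either strand in the windows of Ndufv2 and Ndufb6, with 2 matches each, and of Ndufab1, with 1. The Ndufv1 window had no match to any of the 5 motifs. Over the 33 genes, GCGCATG was found in 5 (15.2%), against 4.41% of all genes with a window and 7.45% of the tested ones. The YY1 letters AAGATGG were found in 7 (21.2%), against 7.28% and 8.68%. CCGGAAG was found in 4 (12.1%), against 9.93% and 19.2%, and GGGCGG in 15 (45.5%), against 38.2% and 66.4%. The CCAAT box was found in 10 (30.3%), against 41.1% and 42.4%. CCGGAAG and AAGATGG can share their A, A and G, so a match to both can come from the same bases. These matches are counts of letters, and no motif was shared by most of the 33 genes.

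Other genes of the same pathway were read from lists of fixed membership, with the same background of 8.39% higher and 3.54% lower. The complex I assembly factors, which build the complex but do not stay in it, were less uniform. Of 15 tested, 9 had differences above 0 and 6 below, with a median of 0.18. At an unadjusted p under 0.05, 0 were lower and 1 was higher. That gene was Ndufaf2, an assembly chaperone related to Ndufa12, at 0.50 (SE 0.17, limma adjusted p = 0.348), with all its values below the background guide. Ndufaf8 and Ndufaf3 differed by 0.30 and 0.19, and all their values also lay below the guide. Of the 18 factors measured, 11 passed the guide in no array and 2 in all arrays. Of the 36 complex I genes, 24 passed it in all arrays, so the lists are not compared at like levels. In the other complexes with many small subunits all genes tested had differences above 0, and the gene with the smallest p is named for each. Complex III had a median of 0.25 over 9 genes (2 higher, Uqcr11 at 0.67), complex IV 0.31 over 10 (5 higher, Cox7a2 at 0.30) and complex V 0.34 over 15 (10 higher, Atp5j at 0.56). Complex II, which also belongs to the citric acid cycle, had 2 of 4 genes above 0, with a median of 0.078. Its membrane anchor Sdhd differed by 0.35, with all values below the background guide, and its flavin subunit Sdha by -0.13. None of these genes passed in limma over all genes.

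Lists of mitochondrial genes outside the chain had medians from -0.030 to 0.20. Markers of mitochondrial content, such as import and outer membrane proteins, had a median of 0.20 over 14 genes, with 5 higher and 0 lower, with the channel Vdac3 at 0.31 and the import subunits Timm23 at 0.33 and Tomm20 at 0.34. The matrix dehydrogenases that supply NADH to complex I had a median of 0.070 over 10 genes with 0 counted in either direction, and Mdh2, Ogdh and Idh3g differed by 0.18, -0.14 and 0.13. Mitochondrial antioxidant enzymes had a median of 0.13 over 6 genes, with 2 higher, Txn2 at 0.42 and Gpx4 at 0.40, and Sod2 at 0.15. All Txn2 values lay below the background guide. Regulators of nuclear genes for mitochondria had a median of -0.030 over 12 tested genes. Of the 14 measured, 10 passed the background guide in no array, which limits what this median can show. Of the 12 tested, 1 was higher, Gabpb1, a partner of the ETS factor Gabpa, at 0.45 (SE 0.15, limma adjusted p = 0.339). Its values lay below the guide in all arrays. Gabpb1 lies on chromosome 2, as B2m does, and the part of that position in its difference was not tested. Pprc1 and Chchd2 differed by 0.30 and 0.21, and all Pprc1 values lay below the guide.

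Markers of other cells moved between the same arrays. All 12 endothelial markers measured had differences below 0, with a median of -0.43. Of these, 6 were lower at an unadjusted p under 0.05 (background 3.54%). Abcb1a, an efflux pump of the blood-brain barrier, Vwf and the junction cadherin Cdh5 differed by -0.85, -0.50 and -0.72. All Vwf values lay below the background guide. Array medians of the endothelial markers were 0.51, 0.46 and -0.19 in wildtype replicates 1 to 3. In knockout replicates 1 to 4 these medians were -0.036, -0.16, -0.16 and -0.26. Their summed level on the log2 scale ran from 13.47 to 14.25 over wildtype arrays and from 13.55 to 13.74 over knockout arrays, and 5 of the 12 passed the background guide in no array. Wildtype replicates 1 and 2 were thus the arrays highest in endothelial markers and lowest in complex I transcripts. Mural markers had the same 2 arrays highest, with summed levels from 11.29 to 12.06 over wildtype arrays and from 11.37 to 11.44 over knockout arrays, 1 of 5 tested genes lower (Cspg4 at -0.49) and 3 of 6 above the guide in no array. Neutrophil markers had differences above 0 in all 8 genes, with a median of 0.62. Of these, 1 was higher at an unadjusted p under 0.05 (background 8.39%), Camp at 0.68. Their summed level ran from 12.88 to 13.84 over wildtype arrays and from 12.96 to 14.65 over knockout arrays. The neutrophil array medians were -0.80, 0.15 and -0.64 in wildtype replicates 1 to 3 and -0.69, -0.028, 0.62 and 1.27 in knockout replicates 1 to 4. Knockout replicate 4, the highest, was the lowest knockout array in 22 of the 36 complex I genes, with no share over tested genes computed. Wildtype replicate 1 was the lowest array both in neutrophil markers and in complex I transcripts. Monocyte markers were also highest in knockout replicate 4. Their summed levels ran from 11.46 to 12.24 over wildtype arrays and from 11.78 to 12.94 over knockout arrays. Of the 5 tested, 3 had differences above 0 and 2 below, with a median of 0.35. Plac8, Chil3 and Fn1 differed by 1.105, 1.17 and -0.32. The part of these cells in the complex I values was not tested.

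**Figure D5:**
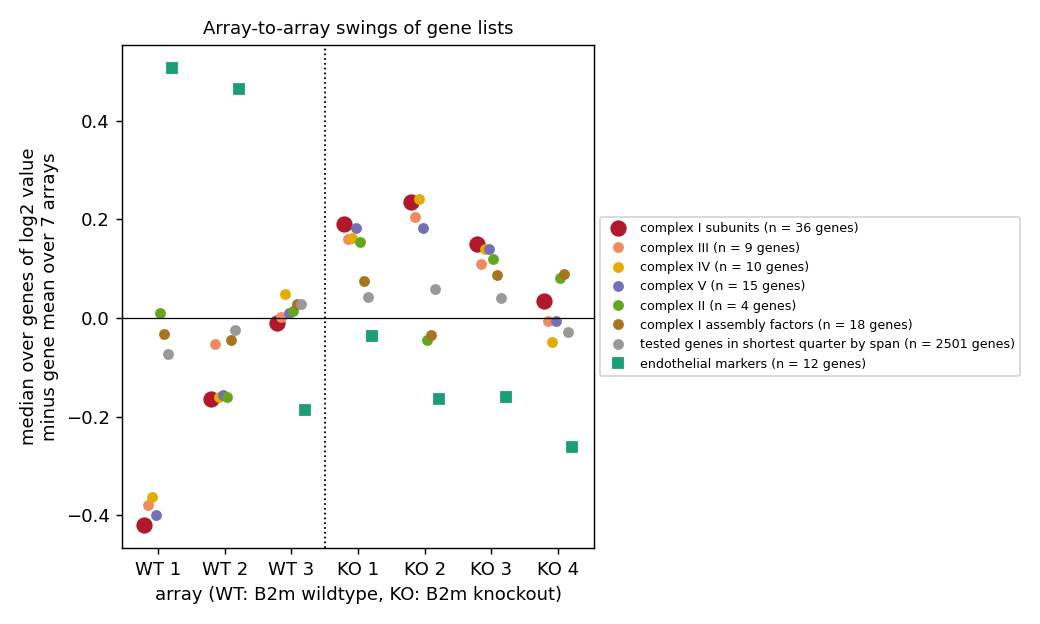
Median over each gene list (points, lists named with their number of genes) of the log2 value minus the gene's mean over the 7 arrays, for each array. Complex I transcripts lie at -0.42 and -0.16 in wildtype replicates 1 and 2, where endothelial markers lie at 0.51 and 0.46, and complexes III, IV and V lie at -0.38, -0.36 and -0.40 in wildtype replicate 1.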

How the data were processed

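Microglia from 3 B2m wildtype and 4 B2m knockout samples were split by labelled genotype, and replicate numbers follow deposit order. The deposited values are log2 expression per probe set, made by the authors with RMA. The submitters' processing notes name Expression Console 1.1. The array's genome build was not given in the sources used here. RMA evens out array distributions, so a shift common to most genes would not be seen. Of 28846 rows, 19572 had 1 gene symbol, and all of these matched a RefSeq gene table of GRCm38.p6 by Entrez ID. The probe set with the highest mean was kept for 55 genes with several. Genes above the array median in at least 3 of 7 arrays (10004) were fitted in limma 3.58.1 (R 4.3.3, lmFit and eBayes) with Benjamini-Hochberg adjustment over all of them. The fit was tested on simulated data. For arrays, their number limits the precision.

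The members and lists were chosen with earlier results of these data known. Values per array are given for B2m, the 10 members with the smallest unadjusted p, the 3 with the largest SD within groups, the 3 with the smallest difference and any below 0. For other lists, differences are given for up to 3 genes each by unadjusted p. Ndufs8 and the marker P2ry12 were added after their values were seen. The 5 motifs were also chosen after the expression values were seen. Marker lists of other cells not described in the text had median differences of 0.00079 (astrocytes, 2 tested genes), 0.027 (oligodendrocytes, 4), -0.024 (neurons, 4), 0.25 (B cells, 1), -0.15 (border-associated macrophages, 8) and -0.012 (erythroid cells, 2), and the microglial list had 0.026 (15).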

Additional observations from a re-analysis of the deposited data

Results flagged for a closer look

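Of 37 sets of 4 knockout values examined, those of the 36 genes and their median, 1 had an array far from the others, and chance marks about 1 in 20. For Ndufa13, knockout replicate 4 measured 12.09 against 12.37 to 12.42 in the other knockout arrays, and the gap took up 0.858 of the group's range.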

How the results depend on the processing

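Over 18 alternative settings 0 of the complex I genes tested were called at an adjusted p under 0.05 in limma. The lowest adjusted p of any of them was 0.0583, for Ndufb9 without wildtype replicate 3, and the lowest in the other settings ran from 0.128 to 0.999. The count higher at an unadjusted p under 0.05 was 27, and leaving out 1 array in turn gave 11 to 28, while the share of all tested genes ran from 4.74% to 9.51% against 8.39%. It was 2 without wildtype replicates 1 and 2 together and 17 with wildtype replicate 1 and knockout replicate 4 both left out, with 2.17% and 5.70% of tested genes. The median of 0.39 was 0.26 to 0.48 with 1 array left out and 0.16 without wildtype replicates 1 and 2. The count of genes whose groups did not overlap was 22 (7.10% of tested genes). It was 15 after repeated quantile normalization (5.23%) and 26 with array medians centred (10.1%). Leaving out an array can only keep or raise it, so those settings say nothing of its stability. No setting counted a complex I gene as lower. The Ndufv1 difference turned to -0.00022 after repeated quantile normalization, -0.0052 with the gene span trend removed, -0.0091 without wildtype replicate 1, -0.020 without wildtype replicate 2, -0.0021 without knockout replicate 3 and -0.19 without wildtype replicates 1 and 2. The cause was not tested. Centring arrays on their medians changed the split over all tested genes from 839 higher and 354 lower to 1104 and 205. No paired analysis was possible because the labels give no pairing, litter or batch. Values near the negative control rows limit what can be read from Ndufs1, Ndufs7 and Ndufab1, which passed their 95th percentile in no array. The limit also touches 9 genes that passed it in some arrays only, Ndufb9, Ndufv2, Ndufv3 and Ndufa11 among them. The other 24 passed it in all arrays.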
